A study of Mus musculus with 59 samples.

Results

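Distal PPARα peaks gained on fasting were 7133 of the 29085 PPARα peaks called in fasted mouse liver, or 24.5% (95% Wilson interval 24.03 to 25.02). They are genomic intervals of 222 bp called in fasted C57BL/6 livers that had no PPARα peak in fed livers, no BCL6 peak and no PPARδ peak in either state, and no promoter at their center. PPARα, BCL6 and PPARδ had been mapped by ChIP-seq, which sequences DNA fragments bound by a protein, in livers of wild-type C57BL/6 mice that were fed or fasted overnight. BCL6 was also mapped in fed C57BL/6 mice with the genotype *Bcl6* fl/fl, which carry floxed *Bcl6* alleles without Cre, and these livers stand here as an independent BCL6 map. Each of the 7 peak lists joined 3 libraries and gave positions only, so the depth behind a peak and its spread between livers are unknown. Whole liver was used, so hepatocytes and other liver cells contributed to each list, and the ages of the mice are not given in the sources used here.

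PPARα is a nuclear receptor activated by fatty acids, and in hepatocytes it switches on the genes that burn lipid and make ketone bodies when food is withheld. It binds DNA together with RXR, usually at a DR1, which is a pair of AGGTCA hexamers in the same direction with a single base between them. BCL6 is a zinc finger repressor, first known from lymphocytes, that also sits near lipid genes in liver, and PPARδ is a relative of PPARα that recognizes the same element.

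The members were selected on the fed and fasted calls themselves, so those calls are a description and carry no test. Of the 29085 fasted peaks, 11989 had no fed PPARα center within 200 bp, a background of 41.2%. Removing peaks with a BCL6 center within 200 bp left 10378, removing those with PPARδ left 9726, and removing those centered between 1000 bp upstream and 100 bp downstream of a RefSeq transcription start site (TSS) left 7133. Few peaks lay close to the distance limit. The nearest fed PPARα center was 201 to 400 bp away for 78 members, whereas 183 fasted peaks were left out with a fed center at 101 to 200 bp and 4021 with a fed center within 100 bp, counted among distal fasted peaks that met the other criteria. The matching counts for BCL6 were 81, 96 and 1268, and for PPARδ they were 23, 35 and 540. For comparison, the same criteria gave 4204 distal PPARα-alone peaks called in both fed and fasted livers, 2313 called in fed livers only and 2593 gained at promoters.

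The following sequences show the letters that the motif results rest on. They are 12 of the 17 members with a DR1 free of mismatches near their center, all outside exons, and each carries the name of the gene with the nearest TSS. The sequences were read from GRCm38, the assembly of mm10, and are written 5′ to 3′ in the direction of the DR1, with the DR1 in capitals and 10 bases to either side in lower case.
Usp10 match: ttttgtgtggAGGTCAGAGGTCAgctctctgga
Nipa2 match: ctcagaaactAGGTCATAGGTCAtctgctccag
Sec61a2 match: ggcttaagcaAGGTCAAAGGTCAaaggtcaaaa
Elf2 match: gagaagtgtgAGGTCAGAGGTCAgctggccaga
Gemin5 match: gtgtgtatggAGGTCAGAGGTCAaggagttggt
Dbx1 match: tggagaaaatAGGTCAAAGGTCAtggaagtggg
Kcnj15 match: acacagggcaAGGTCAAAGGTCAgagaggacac
Comp match: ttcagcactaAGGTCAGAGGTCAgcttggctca
Man1c1 match: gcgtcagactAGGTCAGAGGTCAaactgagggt
Cdk1 match: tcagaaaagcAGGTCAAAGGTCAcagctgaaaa
Fam160a1 match: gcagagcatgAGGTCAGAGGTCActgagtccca
Fzd5 match: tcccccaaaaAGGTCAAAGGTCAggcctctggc
The base between the hexamers was A, G or T in these 12 matches, and in the peak near *Sec61a2* the element ran on into a further aggtca. The matches near *Usp10* (chr8:119936602-119936824), *Sec61a2* (chr2:5877482-5877704), *Elf2* (chr3:51329378-51329600) and *Cdk1* (chr10:69348281-69348503) lay in introns of those genes. The peak whose nearest TSS was that of *Dbx1* (chr7:49527007-49527229) lay in an intron of *Nav2*, and those near *Nipa2* (chr7:55967151-55967373) and *Kcnj15* (chr16:95236533-95236755) lay in non-coding genes. Those near *Gemin5* (chr11:58169796-58170018), *Comp* (chr8:70364165-70364387), *Man1c1* (chr4:134727572-134727794), *Fam160a1* (chr3:85813259-85813481) and *Fzd5* (chr1:64753746-64753968) were intergenic.

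None of those 12 peaks was nearest to a gene of the metabolic lists described below. Among the members with 1 mismatch that were considered for printing, 2 were nearest to a listed gene, *Acaca*, which encodes the acetyl-CoA carboxylase that starts fatty acid synthesis, and *Slc38a2*, which encodes an amino acid transporter. The first lay at chr11:84322167-84322389 in an intron of *Acaca*, and the second was intergenic at chr15:96791375-96791597. A further match with 1 mismatch, shown because *Prkag2* had the most members of any gene, lay in an intron of *Prkag2* at chr5:24902845-24903067 and was chosen after its values were seen.
Acaca match: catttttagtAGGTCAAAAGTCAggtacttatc
Slc38a2 match: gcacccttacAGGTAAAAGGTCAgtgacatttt
Prkag2 match: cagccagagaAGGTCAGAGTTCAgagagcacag

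The whole peak is shown for the 2 of these 12 members whose exact DR1 lay nearest to the center, 2 and 3 bp away, as the 223 letters from the first to the last listed position on the plus strand. The capitals mark the DR1, which reads on the minus strand in the second.
Usp10 peak: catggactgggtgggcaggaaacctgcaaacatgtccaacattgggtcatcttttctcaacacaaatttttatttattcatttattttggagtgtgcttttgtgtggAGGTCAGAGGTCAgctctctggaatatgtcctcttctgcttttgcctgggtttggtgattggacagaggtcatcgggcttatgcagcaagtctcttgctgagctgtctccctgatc
Nipa2 peak: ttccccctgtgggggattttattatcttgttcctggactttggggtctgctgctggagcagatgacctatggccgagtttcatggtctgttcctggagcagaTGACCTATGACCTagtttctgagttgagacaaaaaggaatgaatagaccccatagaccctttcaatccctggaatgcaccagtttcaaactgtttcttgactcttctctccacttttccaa
The nearest fed PPARα center was 20139 bp away for the *Usp10* peak and 32063 bp for the *Nipa2* peak. The nearest C57BL/6 BCL6 center lay 245557 and 32059 bp away, and the nearest *Bcl6* fl/fl BCL6 center 9550 and 80094 bp away. Elsewhere in these 12, a *Bcl6* fl/fl center lay 89 bp from the *Gemin5* peak and 51 bp from the *Fam160a1* peak.

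A DR1 with at most 2 mismatches lay in the central 50 bp of 421 members, or 5.90% (5.38 to 6.47). All fasted PPARα peaks gave a background of 4.86%. Windows 1000 bp to either side of the members held a match in 102 of 14266 cases, or 0.715% (0.589 to 0.867), and the odds ratio of members against these flanks was 8.71 (two-sided Fisher's exact test, adjusted p = 1.04e-110). The element read backwards, as a control for letter content, occurred in 41 members, or 0.575%. Peaks are the unit in every such test, and since the lists pool livers, these p-values compare sets of positions and not animals.

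The quality of the match separated members from flanks further. The element was exact in 17 members, had 1 mismatch in 104 and had 2 in 300, whereas the flanks held 0, 15 and 87. A count of 0 in 14266 flanks allows a share of up to 0.0210%. Exact matches numbered 4 among the 4204 peaks called in both states and 0 among the 2313 called in fed livers only, which allows a share of up to 0.130%.

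The DR1 share of gained peaks was 1.66 times that of peaks called in fed livers only on the odds scale, with 3.63% of those holding a match (2.94 to 4.47, adjusted p = 1.03e-04). GC content moved with this result, since its median was 49.5% in members and 45.05% in fed-only peaks. The difference was as large when the comparison was stratified by GC content (odds ratio 1.81, Cochran-Mantel-Haenszel test, adjusted p = 2.03e-05). Among peaks of 45 to 50% GC alone, with 1992 members and 605 fed-only peaks, the odds ratio was 1.56 and did not pass (adjusted p = 0.555). Gained peaks and peaks called in both states did not differ detectably in the 50 bp window, where the latter gave 5.26% (4.62 to 5.97) and an odds ratio of 1.13 (adjusted p = 0.520). In a 200 bp window the same comparison gave 16.8 against 14.8% and passed (odds ratio 1.16, adjusted p = 0.0133).

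Matches were concentrated at peak centers. Anywhere in the peak, 1232 members, or 17.3%, held a DR1, and the match nearest to the center lay a median of 29 bp from it, within 25 bp in 556 of them. The plot of DR1 position shows 12.8 and 15.1 matches per 1000 members per 10 bp in the bins just left and right of the center, against 10.8 and 12.6 for peaks called in both states and 7.52 and 8.73 for fed-only peaks.

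**Figure D1:**
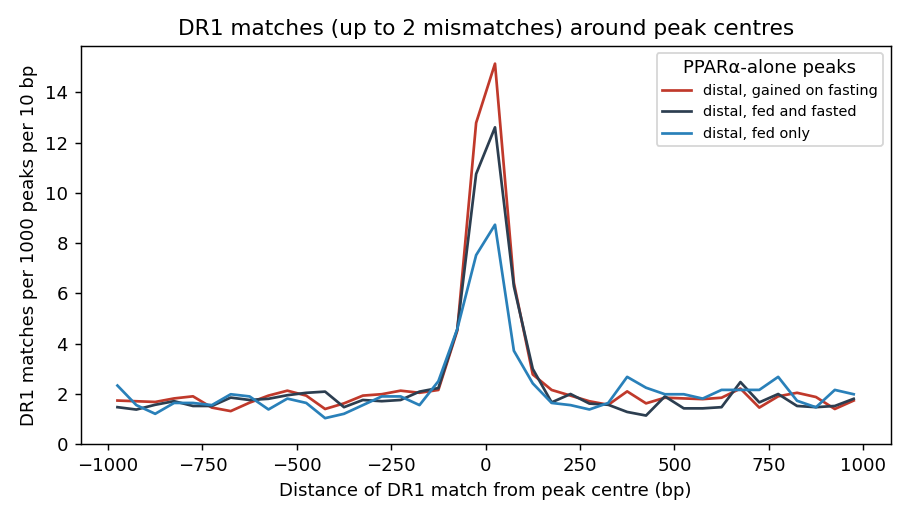
DR1 matches with at most 2 mismatches per 1000 peaks per 10 bp (vertical axis) against distance from the peak center in bp (horizontal axis, 50 bp bins) for distal PPARα-alone peaks gained on fasting, called fed and fasted, or called in fed only. All 3 curves peak at the center, with gained peaks highest at 15.1 and fed-only peaks lowest at 8.73 in the bin right of the center.

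Spacing and the spacer base were read next, both chosen after the DR1 counts were seen and given without a test. With the hexamers 1 base apart, members held 8.25 times the share of their flanks. At spacings of 0 and 2 to 8 bases the ratio ran from 2.25 to 4.16. In the 421 member matches the spacer was A in 214, or 50.8%, and G in 140, or 33.3%. Flank matches had A at 26.5% of spacers and peaks called in both states at 51.6%. The letters AANT just before the DR1, a pattern often described for PPAR elements, preceded 24 member matches, or 5.70% (3.86 to 8.34), and 3 of 102 flank matches, or 2.94% (1.01 to 8.29), so no difference could be seen at this number of matches.

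Other liver motifs were then searched on both strands in the same 50 bp windows. The letters were AGGTCA for a single nuclear receptor hexamer, TTCCTAGAA with up to 1 mismatch for BCL6, TTCNNNGAA for the STAT family, TGTTTAC for FOXA and FOXO, TTGCNNAA for C/EBP, TATTGAT for HNF6, CAAAGTCCA with up to 1 mismatch for HNF4 and ACANNNTGT for the glucocorticoid receptor. Further letters were TGACGTCA with up to 1 mismatch for the cyclic AMP response element (CRE), TGANTCA for AP-1, GGGCGG for SP1 and KLF factors, CCGGAAG for ETS factors, CACGTG for the E-box, GTTAATNATTAAC with up to 1 mismatch for HNF1, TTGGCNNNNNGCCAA with up to 1 mismatch for NFI, and CTCF by its consensus. DR1 was written as AGGTCANAGGTCA and so contains the single hexamer, and every exact BCL6 match is also a STAT match. Such matches are descriptions of letters and do not show that a factor was bound.

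Against their flanks, members held 14 of the 17 motifs more often and 1 less often. Median GC content was 49.5% in members and 45.9% in flanks, and its part here was not tested. Read backwards, CRE letters occurred in 2.29% of members (as written 1.58%), SP1 and KLF in 2.55% (2.90%) and ETS in 0.953% (0.981%). The E-box had 1.05% (1.25%), AP-1 1.30% (1.82%) and the glucocorticoid receptor 1.56% (2.09%). FOXA and FOXO had 1.07% backwards, HNF4 0.911%, C/EBP 0.477% and HNF6 0.210%. The SP1 and KLF letters read backwards are GGCGGG, and GGGCGGG holds both readings, so that count is not a separate control. The motifs of liver-enriched factors stood among those higher in members than in flanks, but they were not higher than over all fasted PPARα peaks. Over all fasted peaks the shares were 6.74% for C/EBP, 4.92% for HNF4, 2.06% for FOXA and FOXO and 2.20% for HNF6. For the glucocorticoid receptor the share was 2.12%. Members were below or near each of these shares. C/EBP factors, which open liver enhancers and act in fasting, had matches in 5.29% of members and 1.63% of flanks (odds ratio 3.38, adjusted p = 1.72e-47). HNF4, the nuclear receptor that maintains hepatocyte identity, had 4.32 against 1.65% (odds ratio 2.69, adjusted p = 5.59e-29). The FOXA and FOXO letters, shared by pioneer factors and by the insulin-restrained FOXO1, had 1.70 against 0.673% (adjusted p = 2.82e-11), and HNF6, the onecut factor of hepatocytes and bile ducts, had 1.36 against 0.442% (adjusted p = 6.32e-12). The glucocorticoid receptor, the receptor for the fasting hormone corticosterone, had 2.09 against 1.40% (adjusted p = 3.15e-04). Against flanks the BCL6 element was the exception, with 1.08% of members and 1.68% of flanks (odds ratio 0.638, adjusted p = 5.87e-04). The rule had removed peaks with BCL6 called, so this share is not independent of the choice of members, and with repeats masked it no longer passed (adjusted p = 0.0857).

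**Figure D2:**
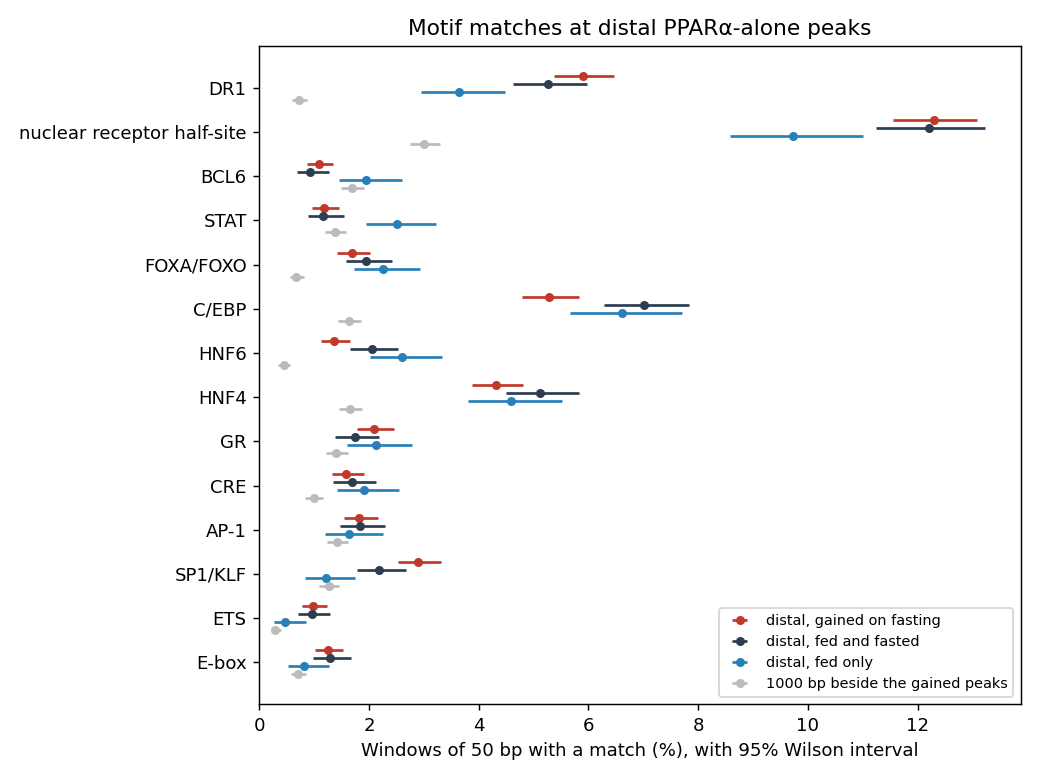
Share of 50 bp windows with a match (horizontal axis, percent, bars are 95% Wilson intervals) for 14 motifs (vertical axis) in distal PPARα-alone peaks gained on fasting, called fed and fasted, called in fed only, and in windows 1000 bp beside the gained peaks. DR1 stands at 5.90% in gained peaks and 0.715% beside them, and C/EBP is lower in gained peaks (5.29%) than in peaks called in both states (7.02%).

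Gained peaks and peaks called in both states differed in 1 of 17 motifs, C/EBP, which was lower in members (5.29% against 7.02%, odds ratio 0.739, adjusted p = 0.00351). It did not pass when peaks with *Bcl6* fl/fl BCL6 were also left out (odds ratio 0.762, adjusted p = 0.0604). When stratified by GC content C/EBP passed (adjusted p = 0.00132), and so did HNF6, with 1.36% of members against 2.05% (adjusted p = 0.0118). Among peaks of 45 to 50% GC alone neither passed, with an odds ratio of 0.856 for C/EBP (adjusted p = 0.892) and 0.479 for HNF6 (adjusted p = 0.280). The interval of the single hexamer share was 11.6 to 13.1% in members and 11.2 to 13.2% in peaks called in both states.

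Against fed-only peaks 8 of 17 motifs passed. The STAT element, bound by STAT5 downstream of growth hormone, was lower in members, with 1.18% against 2.51% (odds ratio 0.463, adjusted p = 1.03e-04), and the single hexamer was higher, with 12.3% against 9.73% (odds ratio 1.30, adjusted p = 0.00268). These and DR1 were the only 3 that also passed when stratified by GC content, with adjusted p = 0.00166 for STAT and 6.51e-04 for the hexamer. None of the 3 passed among peaks of 45 to 50% GC alone, where the odds ratio was 0.601 for STAT (adjusted p = 0.631) and 1.15 for the hexamer (adjusted p = 0.787). The BCL6 element (1.08 against 1.95%), HNF6 (1.36 against 2.59%) and C/EBP (5.29 against 6.61%) were lower in members and the SP1 and KLF letters (2.90 against 1.21%) and ETS (0.981 against 0.476%) were higher, but none of these 5 passed once stratified by GC content, and SP1 and KLF changed direction.

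Peaks gained at promoters, which met every criterion but position, had different letters. DR1 matches lay in 1.23% of them (odds ratio of distal against promoter peaks 5.02, adjusted p = 1.09e-26), and C/EBP matches in 1.31% (odds ratio 4.20, adjusted p = 4.64e-21). GGGCGG, a feature of CpG-rich promoters, occurred in 2.90% of distal and 21.0% of promoter peaks (adjusted p = 1.13e-164), and the ETS letters in 0.981 and 7.67% (adjusted p = 1.30e-59). The median GC content was 49.5% in distal and 64.9% in promoter peaks, and its part in these differences was not tested.

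A second view of BCL6 came from the fed *Bcl6* fl/fl livers, whose list of 17454 peaks the rule did not use. It placed a BCL6 center within 200 bp of 650 members, or 9.11% (8.47 to 9.80), so that a minority of sites without a C57BL/6 BCL6 call had a BCL6 call in these livers. Among all fasted PPARα peaks the background was 41.5%, which includes the peaks with C57BL/6 BCL6 that the rule removed from the members. Peaks called in both states, chosen with the same exclusion of BCL6, had such a center in 1276 of 4204 cases, or 30.4% (29.0 to 31.8, odds ratio of members 0.230, adjusted p = 5.74e-179). Fed-only peaks had it in 360 of 2313, or 15.6% (odds ratio 0.544, adjusted p = 1.32e-16). The *Bcl6* fl/fl list came from fed livers, a state in which members had no PPARα call, and peak heights are not in the lists used here. The part of either in this difference was not tested.

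Beyond the 200 bp that the rule fixed, C57BL/6 BCL6 peaks were also sparser around gained peaks. A BCL6 center lay within 10 kb of 2356 members, or 33.0% (31.9 to 34.1). The share was 44.7% in peaks called in both states (odds ratio of members 0.611) and 41.9% in fed-only peaks (odds ratio 0.684). The median distance to the nearest BCL6 center was 21630 bp for members, 12939.5 bp for peaks called in both states and 15147 bp for fed-only peaks. Within 50 kb the shares were 69.0% of members and 77.6% of peaks called in both states (odds ratio 0.642). The rule used these BCL6 lists within 200 bp, so these shares carry no test.

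**Figure D3:**
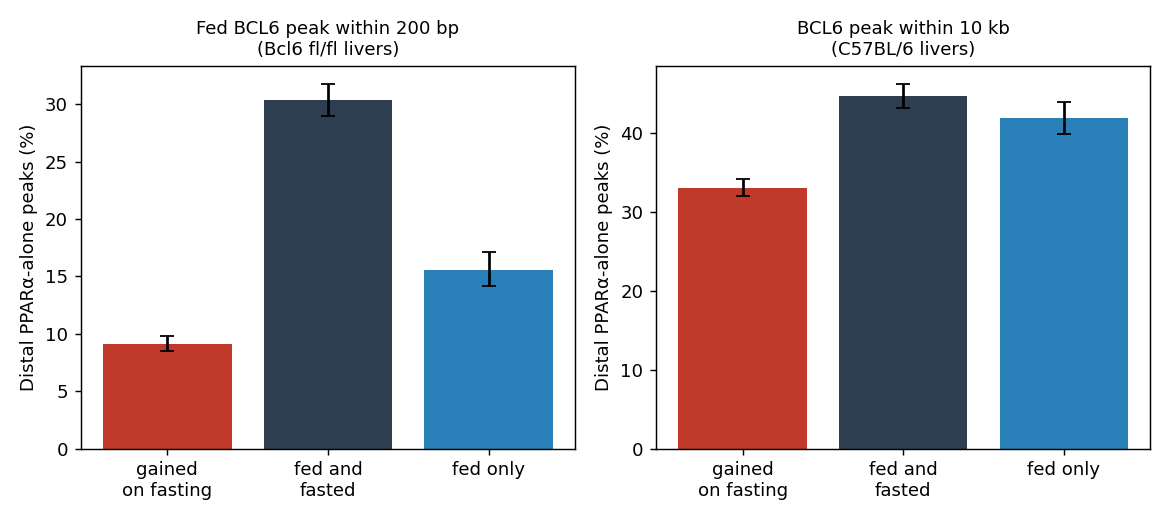
Percent of distal PPARα-alone peaks (vertical axes) with a BCL6 peak center within 200 bp in fed Bcl6 fl/fl livers (left) or within 10 kb in C57BL/6 livers (right), for peaks gained on fasting, called fed and fasted, or called in fed only. Bars start at 0 and error bars are 95% Wilson intervals. Gained peaks are lowest in both panels, at 9.11 and 33.0%. The rule used the C57BL/6 lists, so the right panel carries no test.

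The 650 members with *Bcl6* fl/fl BCL6 were set against the other 6483. A DR1 lay in 5.54% of the former and 5.94% of the latter (odds ratio 0.929, adjusted p = 0.996), and the BCL6 element in 1.08% of both. Of the 22 features compared, no motif passed, nor did distance to a TSS, introns or repeats. A C57BL/6 BCL6 center lay within 10 kb of 39.2 against 32.4% (odds ratio 1.35). A fed PPARα center lay within 10 kb of 48.6 against 40.5% (odds ratio 1.39). The rule used both of these lists, so these shares carry no test.

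Members with a DR1 differed from the other members in 1 of 19 features. A C/EBP match shared the window in 7 of 421 members with a DR1, or 1.66%, and in 370 of 6712 without, or 5.51% (odds ratio 0.290, adjusted p = 0.00333). A DR1 takes up 13 of the 50 bases, which leaves less room for other letters, and the part of this in the difference was not tested. Distance to a TSS, introns and repeats did not pass. A C57BL/6 BCL6 center lay within 10 kb of 32.3% of members with a DR1 and 33.1% of those without. For a fed PPARα center the shares were 42.5 and 41.2%. Both were among the 19 features, but the rule used their lists, so these shares carry no test.

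In the genome, members were mostly intronic or intergenic. An intron of a RefSeq gene held 3949, or 55.4%, intergenic DNA held 2626, or 36.8%, and exons held 558, or 7.82%. The intronic share was 55.2% in peaks called in both states (odds ratio 1.01, adjusted p = 0.845). A TSS lay within 10 kb of 38.2% of members and 38.8% of those peaks (odds ratio 0.974, adjusted p = 0.566). The share was 29.9% in fed-only peaks (odds ratio 1.45, adjusted p = 8.09e-13). A TSS lay within 1000 bp of 8.57% of members, 6.33% of peaks called in both states and 2.81% of fed-only peaks. With a wider promoter excluded, 26.1% of members and 22.1% of fed-only peaks had one within 10 kb (odds ratio 1.24, adjusted p = 6.27e-04). The rule used TSS positions, and the part of peaks close to its promoter limit in this difference was not tested. The median distance to a TSS was 15836 bp for members and 21015 bp for fed-only peaks. Repeats covered 50% or more of the bases of 333 members, or 4.67%, against 2.88% of peaks called in both states (odds ratio 1.65, adjusted p = 2.98e-06) and 3.42% of fed-only peaks (odds ratio 1.38, adjusted p = 0.0141). Members took from 19.1% of fasted PPARα peaks on chromosome 19 to 30.4% on chromosome X.

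Fed PPARα peaks were sparser around gained peaks than around other fasted PPARα peaks. A fed PPARα center lay more than 200 bp and at most 10 kb away from 2942 members, or 41.2%, against 2464 of the 4204 peaks called in both states, or 58.6%, and 53.9% of all fasted PPARα peaks. The rule used the fed calls, so these shares carry no test. For members, another fasted PPARα center lay within 10 kb in 3781 cases, or 53.0%, and another member in 1452, or 20.4%. By contrast 319 members, or 4.47%, had no other C57BL/6 peak of any factor within 100 kb.

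Each member was given to the closest protein-coding TSS at most 1 Mb away, which placed 7120 of them on 4657 of 21000 genes, a background of 22.2% of genes with a member. Of these genes 3170, or 68.1%, had 1 member and 104 had 5 or more. No fed PPARα peak was assigned to 1517 of the 4657 genes, or 32.6%, where 29.8% of the 9793 genes with a fasted PPARα peak and 64.9% of all protein-coding genes had none. No C57BL/6 BCL6 peak was assigned to 1822, or 39.1%, against 40.7 and 69.0%. The genes with members were thus close in both shares to genes with any fasted PPARα peak. Nearness does not show that a gene responds to a peak, and genes with long surroundings collect more peaks, so counts are also given per Mb of the DNA nearest to a gene, for which the genome as a whole had 2.78 members per Mb.

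*Prkag2* had the most members, with 14. It encodes the γ2 subunit of AMPK, the kinase that senses low cellular energy. All 14 lay in its introns, and 13 of them lay between 118.1 and 197.7 kb downstream of its most upstream TSS (52.7 members per Mb). The gene had 24 fasted and 9 fed PPARα peaks. Of the 14 members 3 had a *Bcl6* fl/fl BCL6 center within 200 bp, at 6, 17 and 120 bp, and 2 had a DR1, including the match shown above, which is the member at 17 bp. *Rxra*, which encodes the RXRα partner of PPARα, had 9 members (44.5 per Mb), 17 fasted PPARα peaks and 8 fed ones. Its members reached 41922 bp upstream and 57424 bp downstream of the closest TSS of the gene, none of them had a *Bcl6* fl/fl BCL6 center closer than 6083 bp or a DR1, and their nearest fed PPARα centers lay 6146 to 31998 bp away.

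**Figure D4:**
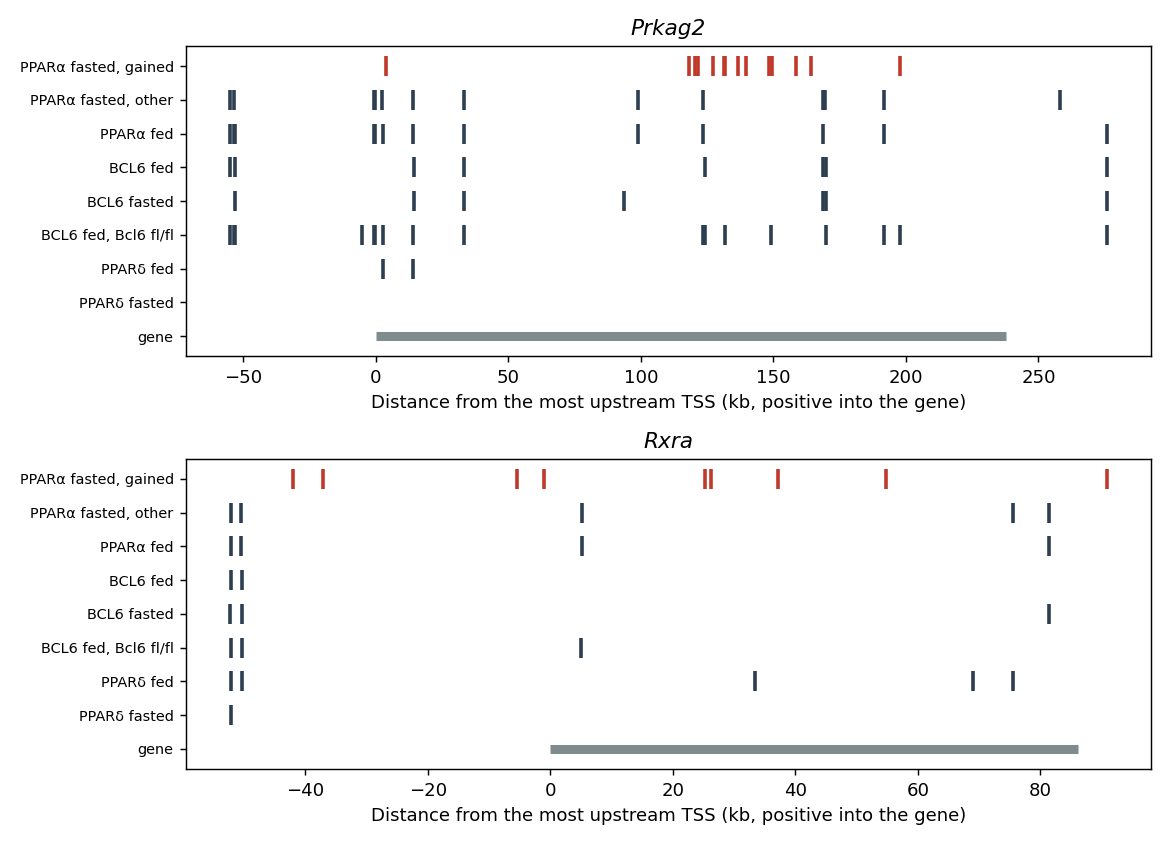
Peak centers around Prkag2 and Rxra by list (rows), in kb from the most upstream TSS with positive values into the gene (horizontal axes); red marks are the distal PPARα peaks gained on fasting and dark marks are all other peaks, and the bar is the gene. At Prkag2, 13 of the 14 gained peaks sit together at 118.1 to 197.7 kb.

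The other 8 genes with the most members follow. *Myc*, *Nr5a2* and *Sox9* had 11 each, *Nfia* and *Pard3* 9 each, and *Irf2bp2*, *Septin9* and *Trib1* 8 each. *Myc* encodes a transcription factor of cell growth, *Nr5a2* encodes LRH-1, a nuclear receptor of bile acid and cholesterol metabolism, *Sox9* a factor of bile duct cells, *Nfia* an NFI family transcription factor, and *Trib1* a pseudokinase of hepatic lipid metabolism. *Pard3* encodes a polarity protein, *Septin9* a cytoskeletal GTPase and *Irf2bp2* a transcriptional corepressor. Density set them apart, with 7.62 members per Mb at *Myc*, whose nearest DNA spans 1.44 Mb, 8.80 at *Sox9*, with 1.25 Mb, and 34.0 at *Irf2bp2*. *Septin9* had 21 fasted and 14 fed PPARα peaks and no C57BL/6 BCL6 peak. An *Nfia* member lay in an exon 107 bp downstream of a TSS. Of the 98 members of these 10 genes, 13 had a *Bcl6* fl/fl BCL6 center within 200 bp and 8 had a DR1. Over all members the shares were 9.11% and 5.90%.

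A set of 16 gene lists was read the same way, with 315 of 316 symbols matched. Most cover liver metabolism and its regulators, and the others hold secretory, immune and ribosomal protein genes and markers of non-hepatocytes. Of all 315 genes 142, or 45.1%, had a member, 280 members in all. The share was 22.2% over all protein-coding genes, and 4657 of the 9793 genes with a fasted PPARα peak had a member. Most of the lists cover genes that are active in liver, and how much of their shares reflects that activity was not tested. The 3 lists of regulators had the highest shares. Circadian clock genes had a member in 15 of 18 cases (3.44 times the members per Mb of the genome) and fasting transcription factors in 18 of 27 (4.25 times). Insulin and growth hormone signaling had one in 14 of 21 (2.61 times). Members made up 20.9% of the fasted PPARα peaks at clock genes and 22.3% at fasting transcription factors. At insulin and growth hormone signaling genes they made up 18.0%, where the share over all fasted peaks was 24.5%. The rule fixes these shares in part, and they carry no test.

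Among the regulators, *Rora*, a nuclear receptor that activates clock genes, had 7 members of 33 fasted PPARα peaks (6.38 members per Mb). *Ppargc1a*, the coactivator of gluconeogenesis and mitochondrial oxidation, had 6 of 14 (5.63 per Mb). *Irs2*, the insulin receptor substrate of liver, had 6 of 33 (10.4 per Mb). *Pik3r1*, the regulatory subunit of PI3-kinase, had 6 of 32 (6.20 per Mb). *Klf10*, which encodes a KLF family transcription factor, had 5 of its 10 fasted PPARα peaks as members and 3 fed PPARα peaks. *Bhlhe40*, a clock repressor, had 5 of 19, and *Nr1d1*, the repressor REV-ERBα, had 2 of 4. *Ppara* itself had 4 members of 17 fasted PPARα peaks, 3 of them 50526 to 74641 bp upstream and 1 in an intron 18769 bp downstream of a TSS, and none had a DR1 or a *Bcl6* fl/fl BCL6 center within 200 bp.

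Among genes of lipid use the peroxisomal list had the largest share. Peroxisomal and microsomal fatty acid oxidation had a member at 11 of 20 genes (5.25 times the genome per Mb). *Por*, the electron donor of cytochromes P450, and *Scp2*, a peroxisomal thiolase and sterol carrier, had 3 each, and *Cyp4a14*, a fatty acid omega-hydroxylase, had 2. Mitochondrial beta-oxidation and the carnitine shuttle had a member at 8 of 20 genes, always a single member, among them *Acadm*, the medium-chain acyl-CoA dehydrogenase, *Hadhb*, a subunit of the trifunctional protein, and *Slc25a20*, the acylcarnitine carrier (2.27 times). Ketone body and hepatokine genes had one at 5 of 12 (4.62 times), with 3 at *Bdh1*, which makes beta-hydroxybutyrate. Fatty acid uptake and lipid droplet genes had one at 9 of 22 (3.07 times), with 4 at *Lpin1*, a phosphatidate phosphatase and coactivator, 3 at *Cd36*, a fatty acid carrier, and 2 at *G0s2*, an inhibitor of the lipase ATGL. Of the 2 at *G0s2*, 1 lay in an exon 150 bp downstream of the TSS, just past the limit of 100 bp.

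Members made up a small share of the PPARα peaks at these genes. At the mitochondrial beta-oxidation genes, 8 of 71 fasted PPARα peaks were members, or 11.3%, and at the peroxisomal and microsomal genes 19 of 104, or 18.3%. At ketone body and hepatokine genes they were 11 of 53, or 20.8%. At fatty acid uptake and lipid droplet genes they were 18 of 99, or 18.2%. The share over all fasted peaks was 24.5%. The rule fixes these shares in part, because it removed peaks with fed PPARα or BCL6, and they carry no test.

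Genes of synthesis and of turnover also had members. Cholesterol synthesis and uptake had one at 11 of 18 genes, the densest list at 5.60 times the genome per Mb, and members made up 20 of its 61 fasted PPARα peaks, or 32.8%. *Fdft1*, the squalene synthase, and *Sc5d*, a late enzyme of the pathway, had 3 each. Lipogenesis had one at 9 of 18 (3.07 times), and members were 15 of its 94 fasted PPARα peaks, or 16.0%. *Elovl6*, a fatty acid elongase, had 5 of 16, *Elovl5* had 2 of 12 and *Srebf1*, the regulator of lipogenesis, had 2 of 7. Autophagy had one at 8 of 22 (4.15 times), and members were 15 of its 53 fasted PPARα peaks, or 28.3%. *Sqstm1*, which encodes the receptor p62, had 4 of 6, of which 2 held a DR1 with 2 mismatches. *Ulk1*, the kinase that starts autophagy, had 3 of 5 and no C57BL/6 BCL6 peak. Over all fasted peaks the share of members was 24.5%. The rule fixes such shares in part, and they carry no test.

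The remaining metabolic lists also had members. Amino acid catabolism and the urea cycle had a member at 11 of 22 genes (2.22 times), with 2 each at *Tat*, *Tdo2* and *Hpd*, enzymes of tyrosine and tryptophan breakdown. Gluconeogenesis and fuel switching had one at 6 of 17 (2.44 times), with 4 at *Pcx*, pyruvate carboxylase. Hepatocyte secretory genes had one at 9 of 14 (2.77 times), among them *Apob* and *Apoa1* with 3 each. Peak positions do not show which liver cells a peak came from. Members made up 17.9% of the fasted PPARα peaks at amino acid and urea cycle genes. They made up 16.2% at gluconeogenesis and fuel switching genes and 18.6% at secretory genes, where the share over all fasted peaks was 24.5%. The rule fixes these shares in part, and they carry no test.

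The other lists had few. Markers of Kupffer, endothelial and stellate cells had a member at 1 of 19 genes, *Stab2*, a scavenger receptor of sinusoidal endothelium, with 2 members, which is 0.297 times the genome per Mb. Acute phase and innate immune genes had one at 3 of 20 (0.625 times), the chemokine gene *Ccl2*, the complement gene *C3* and *Nfkbia*, which encodes an inhibitor of NF-κB. Cytosolic ribosomal protein genes had one at 4 of 25, or 16.0% of genes, although their density was 2.32 times the genome.

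**Figure D5:**
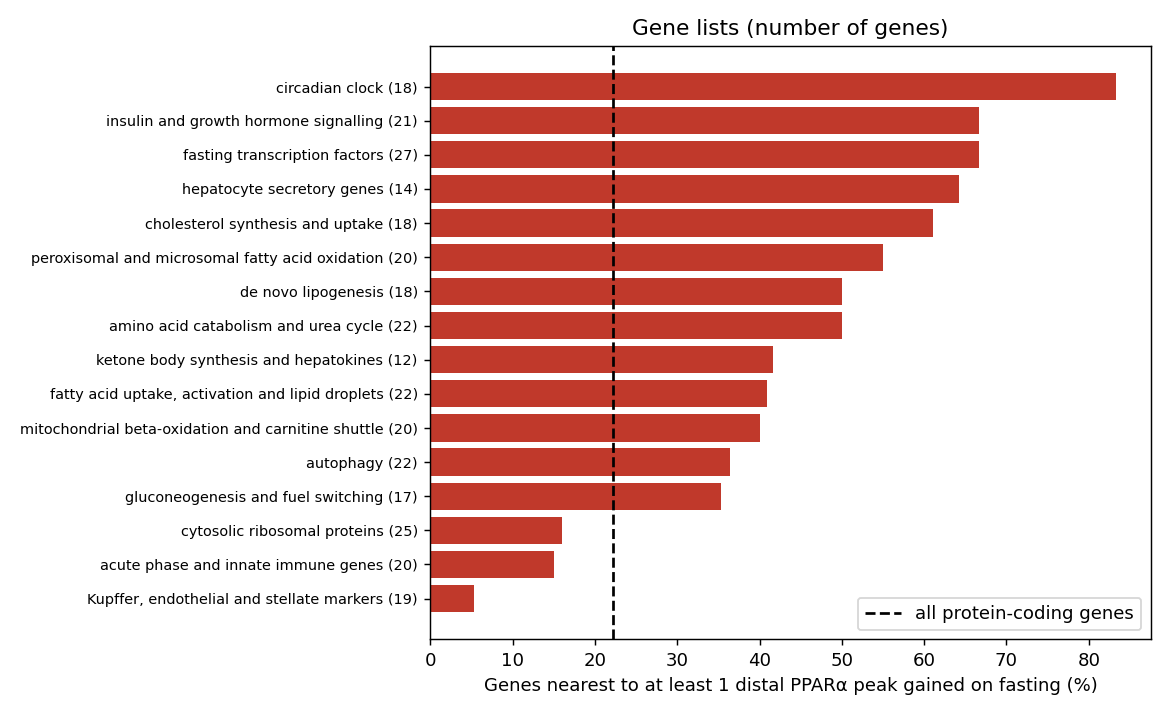
Percent of genes of each list that had at least 1 distal PPARα peak gained on fasting assigned by the nearest TSS (horizontal axis, bars start at 0), with the number of genes in parentheses; the dashed line is the 22.2% of all protein-coding genes. Circadian clock genes are highest at 83.3%, and ribosomal, acute phase and non-hepatocyte lists fall left of the line.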

How the data were processed

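The series holds 59 ChIP-seq samples of mouse liver, and 21 of them make up the 7 peak lists used here. Reads were placed on mm10 with Bowtie by the authors, who called peaks with HOMER on 3 pooled libraries against input and kept peaks by DESeq2 enrichment over input. The deposited lists hold peak positions in bp and no count, score or p-value, so depth is unknown and no interval covers the spread between livers. No columns of other samples were used.

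Peak centers were joined at 200 bp. TSSs were those of 45756 curated RefSeq transcripts on GRCm38, which also gave introns, exons and soft-masked repeats. Motifs were searched in 50 bp windows on both strands. Shares were set against each other with Fisher's exact test (two-sided), adjusted by Benjamini-Hochberg within each family (10 location tests, 17 motifs per comparison), with 0.05 as the threshold and 95% Wilson intervals for counting error. Genes were named by rule: the 10 genes with the most members, up to 3 per list by members, and the members with the best DR1 for sequences, without those in exons or on chromosome 18. A few genes and 1 sequence that these rules name are not reported here. Members, lists and tests were chosen with earlier results of these data known. Functions were tested on simulated data. Alternatives were other distances, promoters, windows, mismatches, masking and gene assignments. The software was SciPy 1.17.1 and NumPy 2.4.6 under Python 3.11.15, with plots by Matplotlib 3.10.9. H3K27ac, input and knockout samples were not analysed here.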

Additional observations from a re-analysis of the deposited data

How the results depend on the processing

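No paired analysis was possible because each list pools 3 libraries and holds no value per replicate, and for the same reason no replicate could be left out. Of 480 recomputed values, 449 kept their direction and side of the threshold, or their count. The intronic share against peaks called in both states, which did not differ, changed side of 1 at distances of 100 bp (odds ratio 0.993) and 400 bp (0.997). The share of members with a fed PPARα center within 10 kb moved to 43.4% at 100 bp. The DR1 share against peaks called in both states passed in 200 bp windows (odds ratio 1.16). In alternatives chosen after seeing the data, the DR1 share against fed-only peaks did not pass among peaks of 45 to 50% GC (1.56), and SP1 and KLF letters against fed-only peaks changed direction when stratified by GC content (0.885). The cause was not tested. A further 11 motif comparisons, 7 of them with fed-only peaks, no longer passed under at least 1 alternative, which makes 25 values, 12 of them in the 2 GC settings. Members ranged from 5963 to 7508 and genes with a member from 3922 to 5021. The share with floxed BCL6 was not recomputed where those peaks were removed, and HNF1 and NFI against flanks gave no odds ratio at 1 mismatch fewer. Autosomes and X alone gave identical values, as no PPARα peak lay on Y.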
